A study of Mesocricetus auratus with 14 samples.

Results

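Tgm1 and Tgm2, the genes of transglutaminase 1 and tissue transglutaminase, were examined in the liver of Syrian golden hamsters (Mesocricetus auratus) on a high-fat diet. These 2 genes, of 22283 in the count table, were chosen by the measured difference between DC371739 and control libraries, in which Tgm1 had the largest positive log2 fold change of all genes tested. Tgm2 was added to it as a relative from the same family. Their levels in the 2 groups are therefore given as a description, without a test. The study sequenced RNA from 7 liver samples of hamsters given DC371739, a compound that the labels name only by this code, and from 7 liver samples labelled control. Both groups were fed the high-fat diet, and no genetic change is named for either. The design implies 1 comparison, DC371739 against control. The sources used here give no dose, route, duration of treatment, strain, age or sex. Whether every sample is a different animal is not stated, so p-values measure only the spread between these samples, which may be technical.

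Transglutaminases are calcium-dependent enzymes that join a glutamine of one protein to a lysine of another, leaving a bond that ordinary proteases do not cut. Transglutaminase 1 is attached to membranes, is best known from the epidermis, where it crosslinks proteins and lipids into the cornified envelope, and is mutated in a human ichthyosis. Tissue transglutaminase is made in many cell types, endothelial cells and hepatocytes among them. It acts on matrix proteins such as fibronectin when calcium is high, binds GTP when calcium is low, and has long been studied in liver injury and fibrosis.

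The 14 libraries differed in depth. In 3 of them (DC371739 replicate 7 and control replicates 6 and 7) 22152239 to 23948628 counts were assigned to genes, and mitochondrial features took 12.6% to 14.4% of them. The other 11 libraries (6 DC371739, 5 control) held 13672589 to 16710097 counts, with 7.23% to 9.33% mitochondrial. Albumin stood between 88227 and 120830 CPM (counts scaled to a library total of 1000000) in every library, and the 8 measured hepatocyte markers summed to 108067 to 130180 CPM in DC371739 libraries and 107980 to 144023 CPM in control libraries. By the quasi-likelihood test of edgeR, 225 of 12166 genes (1.85%) had a Benjamini-Hochberg adjusted p under 0.05, of which 151 (1.24%) were higher and 74 (0.608%) lower in DC371739 libraries. These genes are referred to as called. At 1.85%, 0 called genes is the usual count in a short list. With a term for the 3 deeper libraries in the model, 1499 genes (12.3%) were called, 684 higher and 815 lower. Over the 11 shallower libraries 2635 of 12249 (21.5%) were called, 1353 higher and 1282 lower. DESeq2 called 509 of 12166 genes higher and 333 lower, and limma 144 of the 9077 genes it kept higher and 95 lower.

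Among the genes with a symbol, nearly all of them expressed, Tgm1 was at a low level in control livers and at a middle level in DC371739 livers. In DC371739 libraries it had a lowest value of 5.86, a median of 17.2 and a highest value of 34.5 CPM, against a lowest of 1.92, a median of 2.57 and a highest of 4.66 CPM in control libraries. All 7 DC371739 libraries stood above all 7 control libraries, with 1.20 CPM between the lowest DC371739 library (replicate 7) and the highest control library (replicate 2). The means were 18.5 ± 10.1 CPM with DC371739 and 2.92 ± 1.05 CPM in control (SD, n = 7 each). The fitted log2 fold change was 2.66 (SE 0.36), or 6.34-fold, and the authors' deposited table also lists 2.66. Since Tgm1 was picked for this difference, its separation is no evidence beyond the choice. Of the 12166 genes tested, 36 (0.296%) had all DC371739 libraries above all control libraries in CPM. The second gene in order of log2 fold change had 2.57 (SE 0.50) and the third had 2.01 (SE 0.51).

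**Figure D1:**
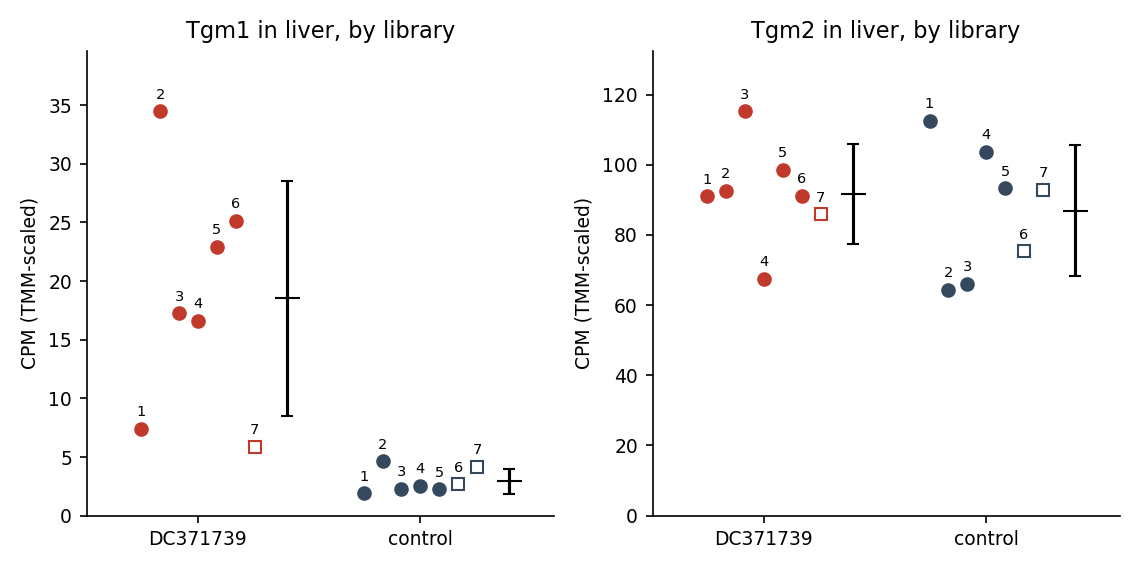
Level of Tgm1 and Tgm2 in each liver library, in CPM, DC371739 left and control right, 1 numbered point per replicate, with open squares for the 3 deeper libraries and a bar for the group mean and SD. For Tgm1 the 7 DC371739 libraries (5.86 to 34.5 CPM) all lie above the 7 control libraries (1.92 to 4.66 CPM), while for Tgm2 the groups overlap.

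Behind these values were 108, 585, 300, 270, 388, 424 and 133 counts of Tgm1 in DC371739 replicates 1 to 7. Control replicates 1 to 7 gave 33, 61, 38, 42, 39, 54 and 87 counts. Replicate 2 was the highest and replicates 7 and 1 the lowest of the DC371739 group once depth was taken into account. The exact Poisson 95% interval was 539 to 634 counts for DC371739 replicate 2 and 88.6 to 130 counts for DC371739 replicate 1, so that the DC371739 libraries differed among themselves by more than counting error, which is all that such an interval covers. In control the interval ran from 69.7 to 107 counts in replicate 7 and from 22.7 to 46.3 counts in replicate 1.

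The DC371739 libraries were also uneven. Tgm1 differed 5.88-fold between the highest and the lowest DC371739 library, and 2.43-fold between the highest and the lowest control library. On the log2 CPM scale its SD was 0.93 among DC371739 libraries, at the 98.9th percentile of all genes tested, and 0.46 among control libraries, at the 77.0th percentile. Tgm1 was therefore among the genes of widest spread in treated livers. The coefficient of variation of its CPM was 54.3% with DC371739 and 35.9% in control.

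The difference was also set out by library depth, with a single DC371739 library among the deeper ones. Among the 11 shallower libraries Tgm1 averaged 20.6 ± 9.16 CPM with DC371739 (SD, n = 6) and 2.73 ± 1.101 CPM in control (SD, n = 5), a ratio of 7.55. Among the 3 deeper libraries the single DC371739 library had 5.86 CPM and the 2 control libraries 3.41 ± 1.05 CPM, a ratio of 1.72. The single deeper DC371739 library was thus the lowest of its group, followed by the shallower DC371739 replicate 1 at 7.39 CPM. Whether the ratios differ was not tested. With the term for the deeper libraries the log2 fold change was 2.53 (SE 0.41), and over the 11 shallower libraries it was 2.95 (SE 0.39).

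In the count table Tgm1 (ENSMAUG00000010151) lies on the minus strand of scaffold KB708321.1, at 2363786 to 2376344, with 15 exon blocks that sum to 2659 bases. The sources used here do not name the genome build. The values count reads over the exons as a whole, so that coding and untranslated parts are not separated. Of 13 genes whose edge lay within 60000 bases of Tgm1, 11 were tested and 0 were called with edgeR, DESeq2 or limma. Limma's filter kept only 7 of them, and 1 had an unadjusted edgeR p under 0.05. With 1.85% of all genes called by edgeR, 0 of 11 is a usual count and says little about the neighbours. The window was chosen after values were seen. The log2 fold changes of the tested neighbours ran from -0.25 (SE 0.08, adjusted p = 0.111) for Nedd8, a ubiquitin-like modifier, to 0.31 (SE 0.31, adjusted p = 0.618) for Tssk4, a testis-type kinase. The nearest gene, ENSMAUG00000017380, lies 2591 bases from the start of Tgm1 on the same strand and has no symbol in the authors' table. It averaged 33.0 CPM with DC371739 and 28.5 CPM in control (log2 fold change 0.22, SE 0.11, adjusted p = 0.295). Cideb, a lipid droplet protein that acts in the lipidation of very-low-density lipoprotein, lies 39617 bases away and averaged 170 CPM with DC371739 and 168 CPM in control.

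**Figure D2:**
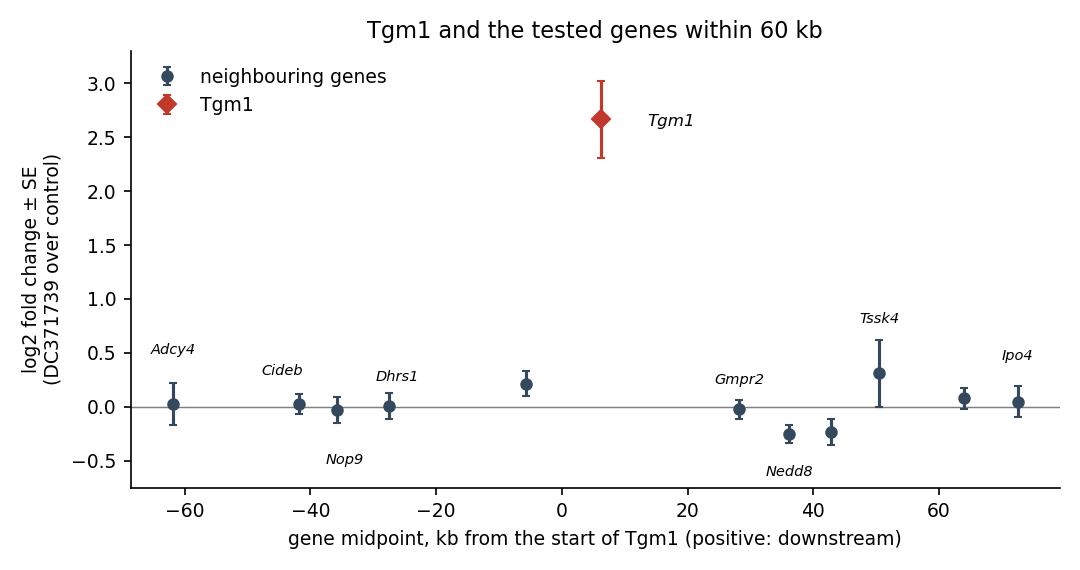
Log2 fold change of DC371739 over control with its SE for Tgm1 and the 11 tested genes whose edges lie within 60000 bases, against the distance in kb of each gene's midpoint from the start of Tgm1. Tgm1 stands at 2.66 and its neighbours between -0.25 and 0.31.

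Tgm2 was abundant in every library, and its groups overlapped. In DC371739 libraries it had a lowest value of 67.5, a median of 91.1 and a highest value of 115 CPM, against a lowest of 64.4, a median of 92.8 and a highest of 112.6 CPM in control libraries. A single DC371739 library, replicate 3, stood above the highest control library. Means were 91.7 ± 14.3 CPM with DC371739 and 86.9 ± 18.6 CPM in control (SD, n = 7 each). The log2 fold change was 0.08 (SE 0.14), or 1.06-fold, less than the spread between libraries, and the authors' deposited table also lists 0.08. It was 0.07 (SE 0.14) with the term for the deeper libraries and 0.08 (SE 0.16) over the shallower libraries. Its coefficient of variation was 15.6% with DC371739 and 21.5% in control. Tgm2 (ENSMAUG00000016456) lies on the plus strand of scaffold KB708260.1, at 5090291 to 5120520, with 14 exon blocks that sum to 3552 bases.

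Between genes, levels were set side by side per length, as the deposited FPKM (counts scaled by exon length and library size). Tgm2 had 33.5 ± 5.25 FPKM with DC371739 and 31.7 ± 6.72 FPKM in control, and Tgm1 had 9.02 ± 4.89 FPKM with DC371739 and 1.43 ± 0.52 FPKM in control (SD, n = 7 each). Among the 10023 genes with an FPKM value, Tgm1 stood at the 51.1st percentile with DC371739 and the 14.6th percentile in control. Of these genes 10011 passed the expression filter, so the percentiles are places among expressed genes and not among all 22283 genes. Tgm2 stood at the 80.3rd percentile with DC371739 and the 78.8th percentile in control. Tgm2 was thus the more abundant of the pair in all 14 libraries. The FPKM of Tgm1 amounted to 27.2 ± 14.7% of that of Tgm2 in DC371739 libraries (range 9.12% to 49.7%) and to 4.82 ± 2.46% in control libraries (range 2.27% to 9.65%). In this proportion the groups overlapped, since DC371739 replicate 7, at 9.12%, stood below control replicate 2, at 9.65%.

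The other relatives with a symbol in the tables were Tgm4, F13a1 and F13b. Tgm4 codes for the transglutaminase of the prostate, F13a1 for the A chain of coagulation factor XIII, the transglutaminase that crosslinks fibrin, and F13b for its carrier chain, which has no crosslinking activity and is made in the liver. Tgm3, Tgm5, Tgm6, Tgm7 and Epb42 are not analysed here. None of the 3 was called with edgeR, DESeq2 or limma, and 0 had an unadjusted edgeR p under 0.05; limma's filter kept 2 of them. Tgm4 averaged 1.81 ± 0.40 CPM with DC371739 and 1.92 ± 0.55 CPM in control (SD, n = 7 each), with a log2 fold change of -0.08 (SE 0.21, adjusted p = 0.872). F13a1 averaged 1.499 ± 0.65 CPM with DC371739 and 1.19 ± 0.56 CPM in control, a log2 fold change of 0.32 (SE 0.36, adjusted p = 0.662). Both of these rest on few reads, down to 9 counts of F13a1 in a DC371739 library and 2 counts in a control library.

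F13b was the most abundant relative, at 316 ± 28.8 CPM with DC371739 and 310 ± 101 CPM in control (SD, n = 7 each), with a log2 fold change of 0.03 (SE 0.16, adjusted p = 0.949). Its levels went with library depth. The deeper libraries had 357 CPM in DC371739 replicate 7 and 455 and 450 CPM in control replicates 6 and 7, above all shallower libraries. Over the 11 shallower libraries alone, 1353 of 12249 genes were called higher with DC371739. F13b was among them, with a log2 fold change of 0.29 (SE 0.09, adjusted p = 0.0344). With the term for the deeper libraries F13b was not called (adjusted p = 0.256).

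Per length, F13b led the family at 205 ± 19.8 FPKM with DC371739 and 201 ± 67.8 FPKM in control, followed by Tgm2. The next in DC371739 libraries was Tgm1, above Tgm4 at 1.17 ± 0.25 FPKM and F13a1 at 0.51 ± 0.22 FPKM. In control libraries Tgm1, at 1.43 ± 0.52 FPKM, and Tgm4, at 1.24 ± 0.35 FPKM, lay within their spread of each other, and F13a1 followed at 0.40 ± 0.19 FPKM. Summed over the 4 crosslinking enzymes (Tgm1, Tgm2, Tgm4 and F13a1), the level was 44.2 ± 7.88 FPKM with DC371739 and 34.8 ± 6.59 FPKM in control. Tgm1 made up 19.7 ± 8.83% of that sum in DC371739 libraries and 4.34 ± 2.10% in control libraries.

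**Figure D3:**
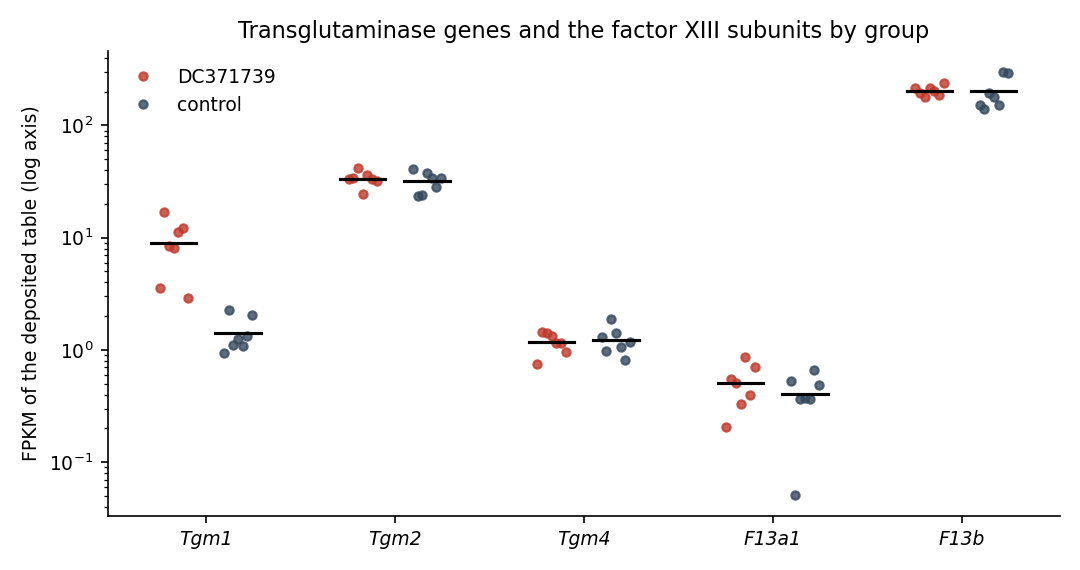
FPKM of the 5 transglutaminase family genes in each library on a log axis, DC371739 left of control for each gene, with lines at the group means. F13b (205 and 201 FPKM on average with DC371739 and in control) and Tgm2 (33.5 and 31.7 FPKM) stand highest, and Tgm1 is set apart by group (9.02 and 1.43 FPKM).

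Genes that share a setting with Tgm1 in skin were next examined. Of 30 genes of the cornified envelope and of ichthyosis, 6 had a symbol in the tables, all 6 were tested and 0 were called (3 had an unadjusted p under 0.05, and DESeq2 called 2 and limma 0). Their median log2 fold change was 0.24, against -0.02 over all genes tested, and 4 of 6 were positive. The fits with the term for the deeper libraries and over the shallower libraries each called 2 higher. Over all genes they called 684 of 12166 and 1353 of 12249 higher. The smallest p belonged to Anxa1, which codes for annexin A1, an envelope component that is also abundant in leukocytes. It averaged 9.04 ± 2.69 CPM with DC371739 and 4.96 ± 1.77 CPM in control (log2 fold change 0.86, SE 0.24, adjusted p = 0.0692), and 5 of the 7 DC371739 libraries stood above every control library. It was among the genes called in the other fits (adjusted p = 0.0225 with the term for the deeper libraries and 0.0382 over the shallower libraries). Markers of squamous epithelium were near the limit of what could be followed: 2 of 16 had a symbol, with a summed level of 6.30 to 9.14 CPM with DC371739 and 6.42 to 12.98 CPM in control. Neither was called (0 had an unadjusted p under 0.05, and DESeq2 and limma called 0). Nearly all genes with a symbol passed the expression filter, and whether those of both lists without one were expressed was not tested. One of the 2 squamous markers, Ovol1, an epithelial transcription factor, averaged 0.53 ± 0.35 CPM with DC371739 and 0.81 ± 0.30 CPM in control.

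For Tgm2, 26 of 29 known substrates and partners were tested. The edgeR test called 0 of them (8 had an unadjusted p under 0.05, and DESeq2 called 3 and limma 0), with 19 positive and a median log2 fold change of 0.24. With the term for the deeper libraries 5 of 26 were called higher, where 684 of 12166 genes over all were. Over the shallower libraries 7 of 26 were called higher, where 1353 of 12249 genes over all were. Mfge8, a secreted bridge between dying cells and phagocytes, had the smallest p, at 24.4 ± 4.01 CPM with DC371739 and 16.9 ± 3.65 CPM in control (log2 fold change 0.53, SE 0.14, adjusted p = 0.0567). It was called with the term for the deeper libraries (adjusted p = 0.0247) and over the shallower libraries (adjusted p = 0.0366). In the list of 8 factor XIIIa substrates 0 were called (3 had an unadjusted p under 0.05, and DESeq2 called 1 and limma 0). Its leading gene, Fn1, codes for fibronectin, a substrate of tissue transglutaminase as well, and averaged 3113 ± 634 CPM with DC371739 and 2339 ± 336 CPM in control (log2 fold change 0.41, SE 0.14, adjusted p = 0.106). Fn1 too was called with the term for the deeper libraries (adjusted p = 0.0313) and over the shallower libraries (adjusted p = 0.00931), where 1 and 3 of this list were called higher. Of 15 enzymes of matrix crosslinking and collagen processing tested, 0 were called by edgeR (4 had an unadjusted p under 0.05, and DESeq2 and limma each called 1). Colgalt1, a collagen galactosyltransferase, came closest, at 29.3 ± 4.96 CPM with DC371739 and 20.6 ± 3.39 CPM in control (adjusted p = 0.0532). Of the 15, 1 was called higher with the term for the deeper libraries and 1 over the shallower libraries, in both cases Colgalt1 (adjusted p = 0.00696 and 0.00286).

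Polyamines are small-molecule substrates of transglutaminases, and of 13 genes of polyamine metabolism tested, 1 fell and 0 rose (2 fell with the term for the deeper libraries and 5 over the shallower libraries). Dhps, the deoxyhypusine synthase that uses spermidine to modify the translation factor eIF5A, fell to 17.1 ± 2.196 CPM with DC371739, against 24.5 ± 4.23 CPM in control (log2 fold change -0.52, SE 0.12, adjusted p = 0.0391). No DC371739 library stood above the control median of Dhps. Over all genes 74 of 12166 fell, 815 of 12166 with the term for the deeper libraries and 1282 of 12249 over the shallower libraries. The call of Dhps was lost without any of DC371739 replicates 2, 3, 5 and 6 or control replicates 1, 2, 3 and 5, with adjusted p up to 0.0930.

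Retinoic acid and TGF-beta are known inducers of Tgm2 in cultured cells, and inflammatory signals through NF-kB and STAT3 act on the gene as well. Of 15 genes of the retinoic acid response tested, 0 were called (4 had an unadjusted p under 0.05, and DESeq2 called 1 and limma 0), with a median log2 fold change of 0.02. With the term for the deeper libraries 1 was called higher, and over the shallower libraries 3. Over all genes these 2 fits called 684 of 12166 and 1353 of 12249 higher, and 815 and 1282 lower. Cyp26b1, an enzyme that clears retinoic acid, averaged 2.53 ± 1.04 CPM with DC371739 and 1.34 ± 0.51 CPM in control (adjusted p = 0.0946, 0.0620 with the term for the deeper libraries and 0.0114 over the shallower libraries). Of 19 genes of the TGF-beta response tested, 0 were called (6 had an unadjusted p under 0.05, and DESeq2 called 2 and limma 0), with a median of 0.06. The term for the deeper libraries gave 1 called higher, and the shallower libraries 2 higher and 2 lower. Ski, a repressor of TGF-beta signalling, averaged 19.0 ± 4.33 CPM with DC371739 and 13.5 ± 0.74 CPM in control (adjusted p = 0.0537, 0.0248 with the term for the deeper libraries and 0.00516 over the shallower libraries).

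Of 17 genes of the NF-kB and STAT3 response tested, 4 rose and 0 fell, 17 were positive, and the median log2 fold change was 0.59. This list was chosen with earlier results of these data known, so its counts are a description and no separate evidence. Tlr2, Steap4 and Timp1, among its called genes, also belong to the gene pairs below, which were chosen in the same way. Of these 17 genes 10 had an unadjusted p under 0.05, DESeq2 called 8 and limma 3 higher, and edgeR called 8 higher with the term for the deeper libraries and 10 over the shallower libraries. Over all genes DESeq2 called 509 of 12166 and limma 144 of 9077 higher. The edgeR fits called 151 of 12166, 684 of 12166 with the term and 1353 of 12249 over the shallower libraries. Tlr2, a receptor for bacterial lipoproteins, rose to 10.02 ± 5.27 CPM with DC371739, against 3.14 ± 0.71 CPM in control (log2 fold change 1.67, SE 0.31, adjusted p = 0.0201). Steap4, a metalloreductase induced by inflammatory cytokines, reached 226 ± 113 CPM with DC371739, against 85.8 ± 20.6 CPM in control (1.40, SE 0.29, adjusted p = 0.0291). Timp1, an inhibitor of matrix metalloproteinases (1.36, SE 0.29, adjusted p = 0.0322), and Tnfaip3, a feedback inhibitor of NF-kB (1.30, SE 0.31, adjusted p = 0.0430), rose as well. Each of these 4 calls was lost without some library: Tlr2 without DC371739 replicates 3 or 6 (adjusted p up to 0.0566), Steap4 without any of 8 libraries (up to 0.0768), Timp1 without any of 7 (up to 0.0780) and Tnfaip3 without any of 10 (up to 0.107).

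Some macrophage markers rose in the same comparison. Laptm5, a lysosomal membrane protein of leukocytes, rose to 49.4 ± 7.08 CPM with DC371739, against 30.4 ± 3.38 CPM in control (log2 fold change 0.70, SE 0.11, adjusted p = 0.0101). Ctss, the protease cathepsin S (0.77, SE 0.13, adjusted p = 0.0155), and Mpeg1, the pore-forming perforin-2 (0.80, SE 0.16, adjusted p = 0.0236), rose too. Of 13 tested, these 3 rose and 0 fell, and 12 were positive (10 had an unadjusted p under 0.05, DESeq2 called 7 and limma 5 higher, and edgeR called 8 higher with the term for the deeper libraries and 6 over the shallower libraries), with a summed level of 865 to 1315 CPM with DC371739 and 768 to 1095 CPM in control. Over all genes, edgeR called 151 of 12166 higher, 684 of 12166 with that term and 1353 of 12249 over the shallower libraries. DESeq2 called 509 of 12166 genes higher and limma 144 of 9077. In bulk liver, more or fewer cells of a type and more or less RNA per cell cannot be told apart. Of 15 stellate cell and fibroblast markers tested 1 rose (3 with the term for the deeper libraries, 4 over the shallower libraries). It was Myh11, the smooth muscle myosin (log2 fold change 0.53, SE 0.11, adjusted p = 0.0250). In this list 13 were positive, the median log2 fold change was 0.29, and 4 had an unadjusted p under 0.05. DESeq2 called 2 of them higher and limma 1. Their summed level was 222 to 289 CPM with DC371739 and 170 to 255 CPM in control. The calls of Mpeg1 and Myh11 were each lost without any of 6 libraries, with adjusted p up to 0.0674 and 0.0691. No marker of hepatocytes, neutrophils, lymphocytes, endothelium, cholangiocytes, or mesothelium and gallbladder was called by edgeR over all 14 libraries. The numbers tested were 8, 3, 8, 13, 10 and 2, in that order. Only 3 of 9 neutrophil markers and 2 of 15 mesothelium and gallbladder markers had a symbol, so 0 calls there say little about those cells. In the order first given, 2, 1, 3, 5, 0 and 0 markers had an unadjusted p under 0.05. DESeq2 called 1, 1, 1, 2, 0 and 0, and limma 0, 1, 1, 0, 0 and 0. With the term for the deeper libraries edgeR called 1, 1, 2, 2, 0 and 0 of the markers in these lists higher. Over the shallower libraries it called 2, 1, 2, 5, 0 and 0 higher and 1 cholangiocyte marker lower. Endothelial markers summed to 267 to 371 CPM with DC371739 and 217 to 330 CPM in control, lymphocyte markers to 16.6 to 31.7 and 11.97 to 21.6 CPM, and neutrophil markers to 8.74 to 14.9 and 5.84 to 9.93 CPM. Cholangiocyte markers summed to 99.7 to 197 CPM with DC371739 and 137 to 199 CPM in control. Among the markers with a symbol, 0 were at 0 in all libraries, which was all but fixed in advance. Of the 10023 genes with a symbol, 10011 passed the expression filter. Whether markers without a symbol were expressed was not tested. The part of any of these cells in the levels of Tgm1 and Tgm2 was not tested.

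**Figure D4:**
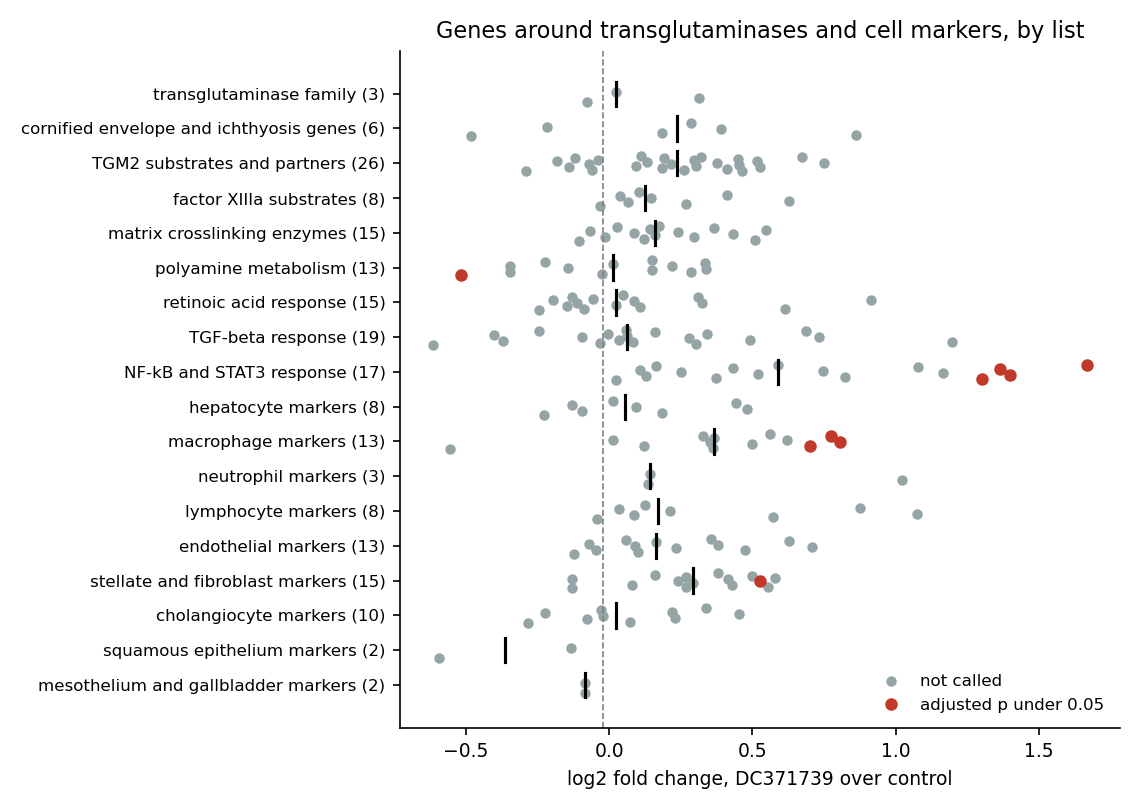
Log2 fold change of DC371739 over control for each tested gene of the lists described, 1 row per list with its number of genes, a short line at the list's median, a dashed line at the median of all genes and called genes in red. Called genes appear in 4 of the 18 lists, and the median of the NF-kB and STAT3 response (0.59) stands farthest above the median of all genes (-0.02). The lists were chosen with earlier results of these data known.

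To ask whether libraries with more Tgm1 or Tgm2 also had more of other genes, 12 pairs were followed across the 7 libraries of each group, giving 24 relations on the log2 CPM scale. Each was tested with an exact two-sided permutation test over all 5040 orderings. None had an adjusted p under 0.05 by Pearson's r or Spearman's rho (2 and 4 had an unadjusted p under 0.05), and the smallest adjusted p was 0.198 for r. With 7 libraries such a test sees only strong relations.

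Tgm1 and Tgm2 did not follow a common order. Across DC371739 libraries r was 0.17 (exact permutation p = 0.720, adjusted 0.864) and rho 0.57, and r was 0.16 without replicates 1 and 7, the farthest from the median in Tgm1. In control r was -0.44 (exact permutation p = 0.317, adjusted 0.761) and rho -0.68, and r was -0.43 without replicates 2 and 7. Control replicate 2 had the most Tgm1 and the least Tgm2 of its group, and control replicate 1 the reverse.

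Among the genes paired with Tgm1, Steap4 went most closely with it in DC371739 libraries, with r = 0.75 (exact permutation p = 0.0599, adjusted 0.288). The rho was 0.86 (exact permutation p = 0.0238, adjusted 0.190), and r was 0.67 without replicates 1 and 7. In control the r of Tgm1 with Steap4 was 0.35. Some genes outside the pairs had a higher r with Tgm1 in DC371739 libraries, as given below. For Tlr2 the r with Tgm1 was 0.71 with DC371739 and -0.75 in control (exact permutation p = 0.0839 and 0.0575, adjusted 0.336 and 0.288). Both rested on the 2 farthest libraries, and without them r was 0.19 with DC371739 and 0.58 in control. Replicate 7, a deeper library, had the least Tgm1 of the DC371739 group, while the deeper control replicates 7 and 6 ranked 2 and 3 from the top. For Fn1 r with Tgm1 was 0.66 with DC371739 and -0.60 in control, and without the 2 farthest libraries it was 0.28 and -0.10. For Timp1 it was 0.40 and -0.05, and for Ace, the angiotensin-converting enzyme, 0.20 and -0.01. For C5ar1, a complement receptor, it was 0.31 and -0.15, and for G0s2, an inhibitor of adipose triglyceride lipase, -0.20 and -0.23.

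With Stat3, a transcription factor of cytokine signalling, Tgm2 had r = 0.46 across DC371739 libraries and r = 0.88 across control libraries (exact permutation p = 0.285 and 0.0131, adjusted 0.759 and 0.198), and the control value was 0.94 without replicates 2 and 3. With Timp1 the r was 0.74 with DC371739 and -0.36 in control, and with Fn1 it was 0.19 and 0.25. Whether any r differed between the groups was not tested.

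**Figure D5:**
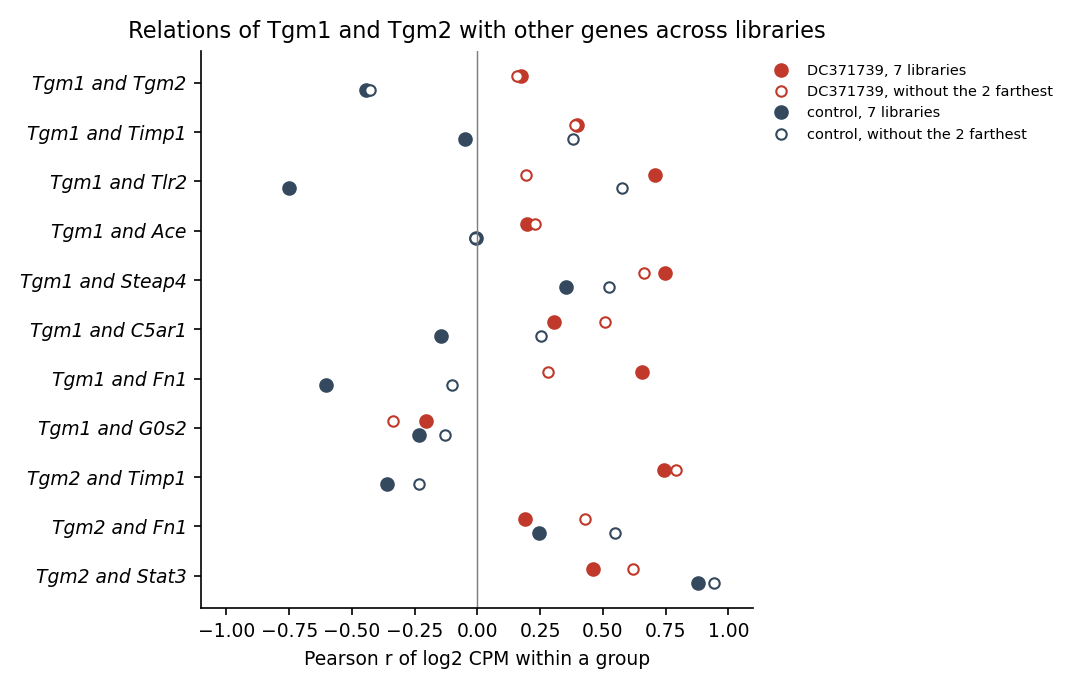
Pearson's r of log2 CPM for each gene pair described (rows), in DC371739 libraries (upper point of a row) and control libraries (lower point), with filled points over all 7 libraries and open points without the 2 farthest. The r of Tgm1 with Steap4 is 0.75 with DC371739 and 0.35 in control, and that of Tgm2 with Stat3 is 0.46 with DC371739 and 0.88 in control.

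The genes most like each member were taken as those with the highest smaller value of 2 Pearson r, 1 over the 7 DC371739 and 1 over the 7 control libraries, among 8893 genes with a symbol whose mean log2 CPM was 1 or more. These are descriptions, picked as the highest of many, over libraries that differ in depth as given above. For Tgm1 the closest were Zcchc14, a zinc finger protein (r = 0.86 with DC371739 and 0.88 in control), Ccdc121 (0.86 and 0.82) and Snai3, a repressor of the Snail family (0.88 and 0.74). Tob1, an antiproliferative protein, Lims1, a focal adhesion adaptor, Pxmp4, a peroxisomal membrane protein, Il17rb, an interleukin 17 receptor chain, and Bbof1 followed, with a smaller r of 0.67 to 0.72. Of these 8 genes 1 was called, Pxmp4, which rose to 18.6 ± 3.07 CPM with DC371739, against 11.6 ± 2.88 CPM in control (adjusted p = 0.0382, lost without any of 8 libraries, with adjusted p up to 0.0928).

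For Tgm2 the closest were Rnf168, a ubiquitin ligase of the DNA damage response (r = 0.92 with DC371739 and 0.94 in control), Myof, a membrane repair protein of the ferlin family (0.92 and 0.90), and Rab10, a regulator of vesicle transport (0.84 and 0.89). Adgre5 and Selplg, both best known from leukocytes, and Rab33b and Rhbdd1 followed, with a smaller r of 0.81 to 0.83. Adgre5 (log2 fold change 0.42, adjusted p = 0.0407) was called higher with DC371739, although Tgm2 itself differed between the groups by less than its spread. That call was lost without any of 10 libraries (adjusted p up to 0.0996). An r over 0.8 in both groups was found for 2 genes with Tgm1 and for 11 genes with Tgm2. In DC371739 libraries alone 270 genes (3.04%) passed 0.8 with Tgm1, and in control libraries alone 49 (0.551%). With Tgm2 the counts were 188 (2.11%) and 144 (1.62%). Across the 8893 genes, which are not independent, r with Tgm1 in DC371739 libraries and r with Tgm1 in control libraries had a correlation of -0.41, and for Tgm2 this correlation was 0.37. In Tgm1 the deeper library was lowest of the DC371739 group, while the deeper control libraries ranked 2 and 3 from the top of theirs. The part of library depth in these correlations was not tested.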

How the data were processed

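RNA of 14 liver samples was sequenced. The submitters' processing notes name edgeR, featureCounts 2.0.0 and HISAT2 2.2.1, with no settings, strand use, genome build or annotation in the sources used here. Both a TruSeq and a NEBNext kit appear in the labels. The authors deposited whole-number counts per Ensembl gene, with exon coordinates and summed exon length per the file headers, and a table of FPKM for 10023 genes with a symbol. That deposited table also holds the authors' log2 fold changes, log2 mean CPM, p-values and adjusted p-values. Count, length and 1 constant per library give every FPKM within a relative deviation of 1.3e-07. Of 22283 genes 4781 had 0 counts throughout. Reads shared by overlapping or near-identical genes cannot be told apart.

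Counts were tested in R 4.3.3 with edgeR 4.0.16 (quasi-likelihood F-test with robust dispersions, TMM scaling, default filter with a minimum count of 10, group alone in the model), which left 12166 genes. Calls had a Benjamini-Hochberg adjusted p under 0.05 over all of them. The SE of a log2 fold change is its size over the square root of its F statistic. CPM uses TMM-scaled library totals, and log2 CPM a prior count of 2. Limma 3.58.1 was run on log2(FPKM + 1), a scale that understates changes of low genes, with a mean FPKM of at least 1, and DESeq2 1.42.0 on the counts. All 42 pairs of libraries within a group differed by more than sampling noise (chi-square at least 10.6 times its degrees of freedom).

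The members, the 18 gene lists, the 12 gene pairs and the term for the 3 deeper libraries were chosen with earlier results of these data known. Named genes were the members, their relatives, the genes of the pairs, the 4 called genes of smallest p per list or else the single gene of smallest p, and the 8 genes most like each member. The window of 60000 bases and the neighbours named in it, the FPKM percentiles and the share of the 4 enzymes were chosen after values were seen. Of the Ensembl identifiers, none could be matched to the reference table, so symbols are the authors'. Some genes that these rules take are left out of the text and plots, though counts and adjustments cover them.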

Additional observations from a re-analysis of the deposited data

Results flagged for a closer look

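In 60 sets of 7 libraries (the genes followed here, 1 group at a time), a single library stood far from the other 6 in 3, where chance flags about 1 in 20. C5ar1 was highest in control replicate 4, at 2.90 log2 CPM, against 2.37 to 2.57 in the other control libraries. Rnf168 was lowest in DC371739 replicate 4, at 1.93 log2 CPM, against 2.39 to 2.72 in the other DC371739 libraries. Selplg was lowest in the same library, at 2.95 log2 CPM, against 3.58 to 3.88. Rnf168 and Selplg had been picked for following Tgm2 across these libraries, and Tgm2 too was lowest in that library, at 67.5 CPM, so the shared library is no separate observation.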

How the results depend on the processing

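Tgm1 was chosen for its rise and its groups did not overlap, so a positive sign was all but fixed in advance. Its log2 fold change was positive under all 26 alternatives. Leaving out each library in turn gave 2.44 (without DC371739 replicate 2) to 2.82 (without DC371739 replicate 7), and limma on log2(FPKM + 1) gave 1.90 with either filter, a scale that by its construction shrinks changes of low genes. That of Tgm2 was also positive under all 26, at 0.01 to 0.15 without each library and 0.07 to 0.11 otherwise. The count of called genes moved far more: from 225 to 842 (509 higher, 333 lower) with DESeq2, 1499 (684 higher, 815 lower) with the term for the deeper libraries and 2635 (1353 higher, 1282 lower) without them, and over 25 to 1069 as each library was left out (51, 25, 77, 25 and 1069 without DC371739 replicates 2, 3, 5, 6 and 7, and 106, 73, 53, 63 and 542 without control replicates 1, 2, 3, 5 and 7). The cause was not tested. The split was 223 higher against 65 lower under upper-quartile scaling, 124 against 36 with no scaling factors and 138 against 46 without an expression filter. The replicate numbers were not taken to pair the samples: deviations of same-numbered libraries had correlations of -0.13 to 0.55, over 0.1 in 2 of 7 pairs, and no DC371739 library went best with its own number. With the replicate number as a block, 8 genes were called (6 higher, 2 lower), none of them among the 11 called genes named above. Without scaling factors Dhps, Tnfaip3 and Adgre5 were no longer called (adjusted p = 0.0681, 0.0606 and 0.0650), nor was Tnfaip3 without an expression filter (0.0537) or with limma (0.0631 to 0.0664).

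Of the other family members, 0 were called without any single library. Over the 11 shallower libraries 1 (F13b) was called, where 2635 of 12249 genes over all were. The sign of small fold changes was unstable. As each library was left out, Tgm4 ranged from -0.16 to 0.054, F13b from -0.046 to 0.15, Rnf168 from -0.045 to 0.087, Rab10 from -0.013 to 0.038 and Bbof1 from -0.15 to 0.048. Bbof1 gave 0.0089 by upper-quartile scaling, 0.027 by library size alone and 0.16 over the shallower libraries. No relation was called under any alternative. Weak control relations changed sign: Tgm1 with Ace had r of 0.00049 with RLE scaling and rho of 0.036 and Tgm1 with Timp1 rho of 0.14. As each control library was left out, r ranged from -0.33 to 0.29 (Tgm1 with Ace), -0.49 to 0.31 (Tgm1 with Timp1), -0.30 to 0.11 (Tgm1 with C5ar1), -0.61 to 0.17 (Tgm1 with G0s2) and -0.016 to 0.53 (Tgm2 with Fn1). Over the shallower libraries relations were tested in the 6 DC371739 libraries and not in the 5 control libraries, since tests were kept to 6 or more libraries; the r without the 2 farthest of 7 libraries is likewise a value with no test. Tgm1 rests on 33 to 87 counts per control library, which limits the precision of its fold change.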
